A study of Mus musculus with 8 samples.

Results

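The state described here is the expression state of wild-type mouse embryonic fibroblasts on day 8 of reprogramming under TGF-beta1, set against the other 3 groups of the study together. Its genes were chosen by their own levels. A gene was called state-high when its CPM (its count per 1000000 counts of the library) in both WT TGF-beta libraries was at least 2 times the highest of the other 6 libraries, and state-low when it was 2-fold or more below the lowest of them in both. The rule found 1033 state-high and 2241 state-low genes, 3274 of the 26930 in the table. These are 4.35% and 9.44% of the 23735 genes with at least 1 count, and since the levels chose the genes, the shares and the levels below are descriptions without a test.

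All cells were fibroblasts reprogrammed with OKSM (Oct4, Klf4, Sox2 and Myc) in a medium named AGi. WT TGF-beta cells had received 2.5 ng/ml TGFb-1, the active TGF-beta ligand. K36M TGF-beta cells carried K36M, a change of histone H3 from lysine to methionine at the residue named, and had the same ligand. K36M Repsox cells carried K36M and had 250 nM Repsox, a small-molecule inhibitor of the type I TGF-beta receptor, and WT Repsox cells had Repsox without K36M. Each group had 2 libraries of RNA depleted of ribosomal RNA, and the WT libraries are also described as H3. Whether the 2 libraries of each group are from different cultures is not stated in the labels, so p-values may measure technical spread alone. Cells without ligand and inhibitor were not analysed here, and a difference between the media may come from either.

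TGF-beta binds a pair of receptor kinases that phosphorylate Smad2 and Smad3, which enter the nucleus with Smad4 and switch on matrix, cytoskeletal and feedback genes. In epithelial cells the pathway is a classic inducer of the epithelial-mesenchymal transition, in which E-cadherin and keratins are lost and mesenchymal genes are gained. Reprogramming of fibroblasts runs the other way early on, through a mesenchymal-epithelial transition, and TGF-beta is known to hinder it. Trimethylation of the lysine that K36M replaces marks transcribed gene bodies, and K36M histones inhibit the enzymes that methylate it.

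Library totals were 10928302 to 15594217 counts. The libraries of a group correlated at Spearman's 0.992 to 0.995 across genes. The median log2 fold change of WT TGF-beta over the mean of the other groups, across tested genes, was -0.26 with totals as the scale, -0.07 with TMM factors and -0.03 with DESeq2. On TMM-scaled CPM the rule found 1276 state-high and 1934 state-low genes, and the differences below stand beside those shifts. Fewer cells of a type and less RNA per cell cannot be told apart in bulk RNA.

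Promoters of 5 state genes are given as examples of the sequence at the start of such genes. They are RefSeq sequences on GRCm38.p6, from 250 bases before to 50 after the start, written 5′ to 3′ along the gene. Capitals mark CATTCC (the TEAD motif), TGANTCA (the AP-1 motif) and CAGGTG (the E-box read by Snail and Zeb factors), on either strand, so that GGAATG and CACCTG are the same motifs read from the opposite strand. Bmper lies at chr9:23222826-23223125 (+), Acta2 at chr19:34255324-34255623 (-), Krt7 at chr15:101412153-101412452 (+), Krt18 at chr15:102027966-102028265 (+) and Epcam at chr17:87635729-87636028 (+).
Bmper: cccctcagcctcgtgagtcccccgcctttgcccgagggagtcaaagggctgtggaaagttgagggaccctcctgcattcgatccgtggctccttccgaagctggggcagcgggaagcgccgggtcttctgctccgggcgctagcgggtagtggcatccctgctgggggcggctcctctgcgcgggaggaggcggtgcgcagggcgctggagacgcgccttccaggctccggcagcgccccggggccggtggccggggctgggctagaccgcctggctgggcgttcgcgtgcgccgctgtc
Acta2: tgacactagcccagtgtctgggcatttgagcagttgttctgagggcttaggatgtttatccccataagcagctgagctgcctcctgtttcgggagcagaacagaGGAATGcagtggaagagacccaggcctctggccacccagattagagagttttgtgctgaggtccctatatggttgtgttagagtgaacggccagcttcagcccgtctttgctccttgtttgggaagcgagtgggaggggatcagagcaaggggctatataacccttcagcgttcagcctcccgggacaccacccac
Krt7: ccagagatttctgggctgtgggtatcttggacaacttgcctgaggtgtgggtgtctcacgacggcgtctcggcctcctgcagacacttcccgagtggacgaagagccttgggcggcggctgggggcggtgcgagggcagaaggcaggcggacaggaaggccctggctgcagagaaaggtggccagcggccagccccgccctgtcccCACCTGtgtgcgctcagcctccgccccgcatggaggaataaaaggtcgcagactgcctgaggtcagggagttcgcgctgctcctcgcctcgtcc
Krt18: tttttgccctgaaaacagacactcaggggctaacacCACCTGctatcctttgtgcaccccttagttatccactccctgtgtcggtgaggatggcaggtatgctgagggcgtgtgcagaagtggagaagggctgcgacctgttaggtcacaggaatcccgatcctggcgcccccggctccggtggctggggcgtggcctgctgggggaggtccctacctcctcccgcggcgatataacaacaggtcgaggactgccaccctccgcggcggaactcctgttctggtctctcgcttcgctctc
Epcam: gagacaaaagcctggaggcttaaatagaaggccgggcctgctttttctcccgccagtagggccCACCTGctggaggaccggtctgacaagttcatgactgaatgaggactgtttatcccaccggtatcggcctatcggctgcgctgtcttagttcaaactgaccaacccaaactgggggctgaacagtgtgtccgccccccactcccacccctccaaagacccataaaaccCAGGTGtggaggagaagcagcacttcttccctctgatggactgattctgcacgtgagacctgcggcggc

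The state-high Acta2 promoter held the TEAD motif with its first base 146 before the start, and the state-high Bmper window held none of the 3. The 3 state-low epithelial promoters shown each held CAGGTG, Krt7 at 44 and Krt18 at 214 before the start, and Epcam at 187 and 19 before it. Promoters of the other state-low epithelial genes are not shown, so these examples do not stand for them. Promoters were found for 642 of the 1033 state-high genes, 1395 of the 2241 state-low genes and 10605 of the 15789 tested genes. The 1033 and 2241 include 180 and 172 genes with counts too low to be tested, which the 15789 do not, so the sets are not quite alike. CAGGTG lay in 14.3% of the state-high windows and 25.1% of the state-low windows, against 18.5% of all tested windows. The TEAD motif lay in 16.2% of state-high, 13.0% of state-low and 12.4% of all tested windows, and the AP-1 motif in 8.57%, 6.38% and 5.30% of the same sets. GTCTG, a short Smad motif, was in 52.6% of state-high, 46.5% of state-low and 47.8% of all tested windows. State-high windows had a median of 14 CG pairs and state-low windows 17, against 20 in all tested windows. A match is a run of letters and no evidence of binding.

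The 3 genes that mark the state were at high levels in both WT TGF-beta libraries and low in the other 6. Lox (chr18:52675723-52689521, mm9, as all coordinates from here on) encodes lysyl oxidase, which cross-links collagen and elastin. Lox had 2367 and 2369 CPM in WT TGF-beta, against 45.6 and 61.2 in K36M TGF-beta, 0.803 and 5.82 in K36M Repsox and 4.71 and 3.91 in WT Repsox. Megf10 (chr18:57292744-57457121) encodes a scavenger receptor for the engulfment of dying cells, known also from muscle precursor cells. Megf10 had 319 and 340.3 CPM in WT TGF-beta, against 1.04 and 1.92 in K36M TGF-beta, 0.268 and 0.416 in K36M Repsox and 1.25 and 0.638 in WT Repsox. Bmper (chr9:23027520-23289646) encodes a secreted protein that binds BMPs. Its levels were 59.9 and 54.9 CPM in WT TGF-beta, against 0.959 and 1.10 in K36M TGF-beta, 0.937 and 0.831 in K36M Repsox and 1.73 and 1.84 in WT Repsox. No library of the other groups came near either WT TGF-beta library for any of the 3 genes. Per kilobase of exon, the WT TGF-beta mean was 504.1 CPM for Lox, 42.7 for Megf10 and 15.1 for Bmper.

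**Figure D1:**
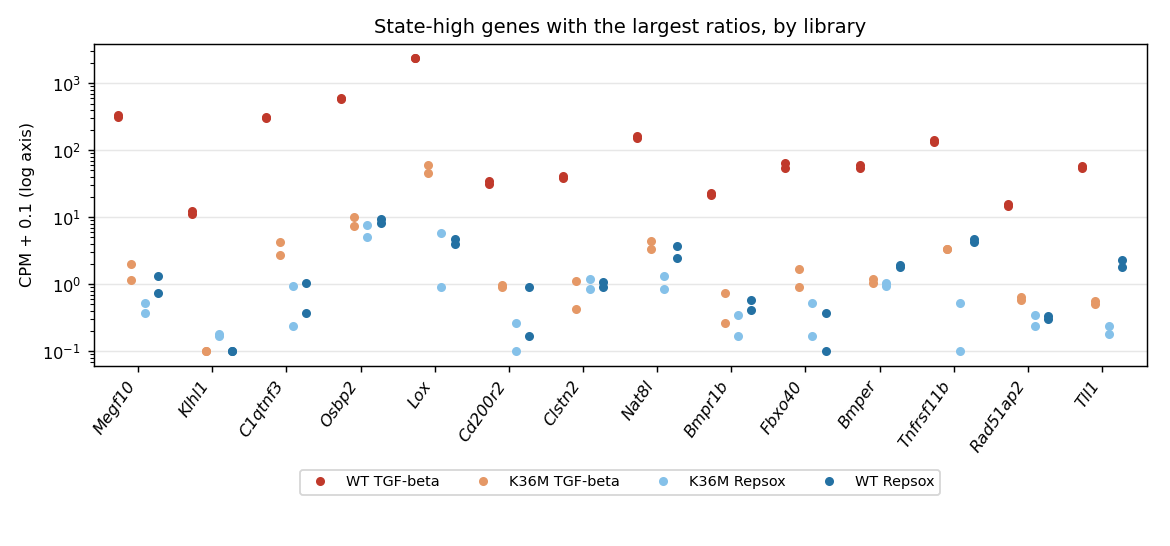
CPM plus 0.1 (log axis) in each of the 8 libraries for 14 of the 15 state-high genes with the largest ratio of the lower WT TGF-beta library to the highest other library, coloured by group. Before 0.1 is added, both WT TGF-beta libraries of every gene stand at least 24.5 times above the highest other library.

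Among state-high genes with a mean of at least 10 CPM in WT TGF-beta, the 15 with the largest ratio ran from Megf10 at 166-fold to Tll1 at 24.5-fold over the highest other library. C1qtnf3 encodes a secreted protein of the C1q and TNF family and had 319.6 and 306 CPM in WT TGF-beta, against 4.16 and 2.65 in K36M TGF-beta, 0.134 and 0.831 in K36M Repsox and 0.277 and 0.958 in WT Repsox. Osbp2, an oxysterol-binding protein, had 597 and 587 CPM in WT TGF-beta, against 7.19 and 10.2 in K36M TGF-beta, 4.95 and 7.65 in K36M Repsox and 9.21 and 8.22 in WT Repsox. In both genes the WT TGF-beta libraries stood alone, and Osbp2 was nearly level over the other 6. Klhl1, a kelch-like protein studied in neurons, had 156 and 174 counts in WT TGF-beta, against 0 and 0 in K36M TGF-beta, 1 and 1 in K36M Repsox and 0 and 0 in WT Repsox. It was thus almost undetected outside the state, and its rate was 157 times that of K36M Repsox with an exact 95% interval of 43.1 to 1301, which covers counting error only. Nat8l, the enzyme that makes N-acetylaspartate, had 163 and 152 CPM in WT TGF-beta, against 3.28 and 4.39 in K36M TGF-beta, 1.21 and 0.748 in K36M Repsox and 3.60 and 2.39 in WT Repsox. Tnfrsf11b encodes osteoprotegerin, the decoy receptor of RANKL, and had 141 and 132 CPM in WT TGF-beta, against 3.28 and 3.29 in K36M TGF-beta, 0 and 0.416 in K36M Repsox and 4.64 and 4.23 in WT Repsox. K36M Repsox was the lowest group for Nat8l and Tnfrsf11b. Tll1, a tolloid protease that trims procollagens, had 57.7 and 54.8 CPM in WT TGF-beta, against 0.400 and 0.458 in K36M TGF-beta, 0.134 and 0.0831 in K36M Repsox and 1.73 and 2.23 in WT Repsox. Bmpr1b, a BMP type I receptor, had 23 and 21.7 CPM in WT TGF-beta and at most 0.641 in any other library. Among the others of the 15 were Cd200r2, Clstn2, Fbxo40 and Rad51ap2, whose WT TGF-beta libraries ran from 14.6 CPM for Rad51ap2 to 63.9 CPM for Fbxo40.

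Krt7 led the state-low genes by ratio, followed by Dlx3 and H19. Krt7 (chr15:101241474-101260744), a keratin of simple epithelia, had 0.235 and 0.705 CPM in WT TGF-beta, against 149 and 143 in K36M TGF-beta, 418 and 404 in K36M Repsox and 109 and 90.5 in WT Repsox. Dlx3, a homeobox factor of placenta and epidermis, had 0.0784 and 0.128 CPM in WT TGF-beta, against 12.6 and 12.3 in K36M TGF-beta, 59.5 and 57.7 in K36M Repsox and 21 and 19.5 in WT Repsox. Both were all but absent in WT TGF-beta and highest in K36M Repsox. Dlx3 had 3 counts in WT TGF-beta over both libraries, and its rate in K36M TGF-beta was 118 times as high with an exact 95% interval of 39.9 to 574.3. H19 (chr7:149761434-149764048) is a long noncoding RNA expressed from the maternal allele, and its neighbour Igf2 (chr7:149836673-149852721) encodes a growth factor expressed from the paternal one. H19 had 7.37 and 26.9 CPM in WT TGF-beta, against 2736 and 2523 in K36M TGF-beta, 12196 and 11604 in K36M Repsox and 3246 and 2928 in WT Repsox. Igf2 had 2.82 and 11.9 CPM in WT TGF-beta, against 664 and 602 in K36M TGF-beta, 3931 and 3936 in K36M Repsox and 1303 and 1258 in WT Repsox. For both, library 2 of WT TGF-beta was the higher of its pair, K36M Repsox was the highest group, and WT TGF-beta did not come near the other 6 libraries. Krt18, the partner keratin of Krt8, had 8.70 and 10.3 CPM in WT TGF-beta, against 771 and 732 in K36M TGF-beta, 1487 and 1421 in K36M Repsox and 567 and 505 in WT Repsox.

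**Figure D2:**
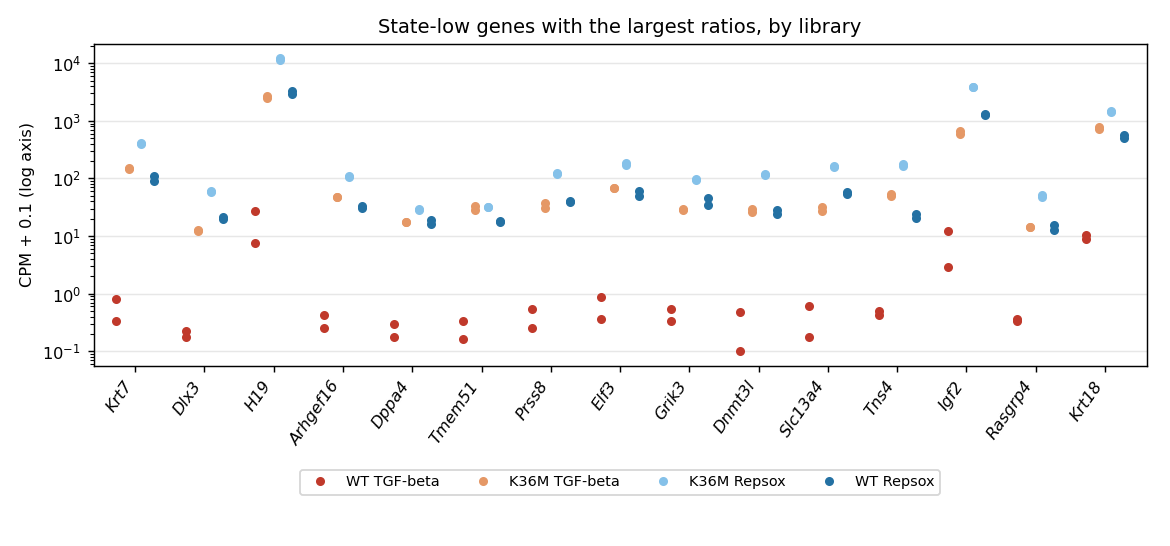
CPM plus 0.1 (log axis) in each of the 8 libraries for the 15 state-low genes with the largest ratio of the lowest other library to the higher WT TGF-beta library, coloured by group. Before 0.1 is added, both WT TGF-beta libraries of every gene stand at least 49.0 times below the lowest other library.

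The rest of the 15 state-low genes included epithelial and pluripotency genes. Elf3, an ETS factor of epithelia, had 0.784 and 0.257 CPM in WT TGF-beta, against 67.9 and 67.2 in K36M TGF-beta, 185 and 174 in K36M Repsox and 61.1 and 50.1 in WT Repsox. Prss8, the membrane protease prostasin, had 0.157 and 0.449 CPM in WT TGF-beta, against 30.9 and 36.9 in K36M TGF-beta, 123 and 119 in K36M Repsox and 39.1 and 40.2 in WT Repsox. Tns4, a tensin of epithelial focal adhesions, had 0.392 and 0.321 CPM in WT TGF-beta, against 49.6 and 53.8 in K36M TGF-beta, 176 and 164 in K36M Repsox and 20.6 and 24 in WT Repsox. These 3 were at under 1 CPM in both WT TGF-beta libraries and highest in K36M Repsox. Dppa4, a chromatin protein of pluripotent cells, had 0.0784 and 0.192 CPM in WT TGF-beta, against 17.2 and 17.3 in K36M TGF-beta, 29.3 and 28.6 in K36M Repsox and 19.2 and 15.9 in WT Repsox. Dnmt3l, the cofactor of de novo DNA methylation, had 0 and 0.385 CPM in WT TGF-beta, against 29.6 and 25.5 in K36M TGF-beta, 113 and 119 in K36M Repsox and 28.6 and 24 in WT Repsox. Arhgef16, Tmem51, Grik3, Slc13a4 and Rasgrp4 made up the 15, each at under 1 CPM in both WT TGF-beta libraries.

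The state-high genes held a large part of the RNA counted. They took 15.6% and 15.8% of all counts in WT TGF-beta, 3.19% and 3.38% in K36M TGF-beta, 1.83% and 1.86% in K36M Repsox, and 3.71% and 3.71% in WT Repsox. The state-low genes took 1.83% and 1.78% in WT TGF-beta, 11.1% and 11.1% in K36M TGF-beta, 15.2% and 15.0% in K36M Repsox, and 9.28% and 9.06% in WT Repsox. K36M Repsox was thus the farthest group from WT TGF-beta on both sums. The 10 most read state-high genes, Thbs1, Fn1, Vim, Lrp1, Flna, Col1a2, Itgb1, Sparc, Lox and Col1a1, took 29.5% of the set's counts, and all code for matrix, adhesion or cytoskeletal proteins or their receptors. The 10 most read state-low genes were H19, Peg10, Slc2a3, Igf2, Slc2a1, Hsp90aa1, Lama5, Cdh1, Krt18 and Akap12, with 18.6%.

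**Figure D3:**
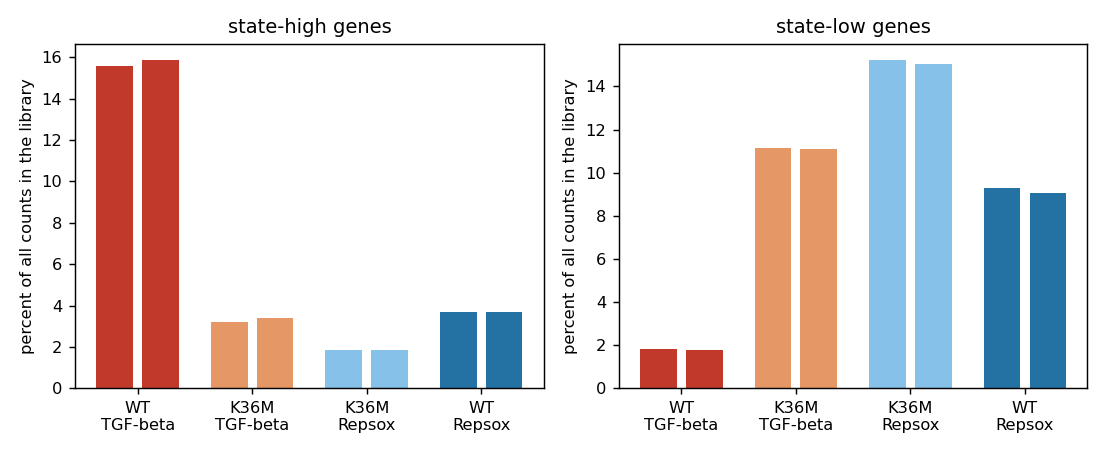
Percent of all counts of each library taken by the 1033 state-high genes (left) and the 2241 state-low genes (right), 1 bar per library. WT TGF-beta stands at 15.6% and 15.8% for the state-high genes, with every other library at 3.71% or less, and at 1.83% and 1.78% for the state-low genes, with every other library at 9.06% or more.

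Of the state-high genes, 853 of 1033 passed the filter on low counts, as did 2069 of the 2241 state-low genes, and 180 and 172 did not. The lower side was at 0 counts in 96 state-high and 342 state-low genes. With such genes counted as past any fold, 410 state-high genes also met a 4-fold rule and 172 a 10-fold rule, and 1213 and 617 state-low genes did. A mean of at least 100 CPM in WT TGF-beta was reached by 256 state-high genes. Protein-coding genes made up 891 of the state-high and 2033 of the state-low genes, and long intergenic noncoding RNAs 38 and 78. Just inside the 2-fold limit lay Serinc2 at 2.004-fold, with Bdnf and Plekhb2, and just outside lay Zbtb41 at 1.998-fold, Tnc at 1.991-fold and Fam46a. On the low side Siva1, Sesn1 and Kdm3b lay just inside and Lyar, Zfp652 and Nup205 just outside. Tnc, the matrix protein tenascin C, had 1008 and 1079.9 CPM in WT TGF-beta, against 12.5 and 14.5 in K36M TGF-beta, 1.54 and 5.40 in K36M Repsox and 493 and 506 in WT Repsox, so that it stood outside by the WT Repsox libraries alone.

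The 2 WT TGF-beta libraries gave close levels for state-high genes. Of the 853 that passed the filter, 3 differed 2-fold or more between them, and the median difference was 1.07-fold. Among 842 of these at 1 CPM or more in both, 2 did. The rule asked both libraries to pass, which favours genes on which they agree. Among 1042 state-low genes at 1 CPM or more in both, 24 differed 2-fold or more, against 80 of 12637 tested genes at that level. Library 2 was the higher for 11 of the 24. Nanog, chosen after its values were seen, had 12.6 and 2.89 CPM in the pair, and Epcam 15.2 and 7.18. Cdh1 had 37.4 and 20.6, Esrp1 had 5.72 and 1.60 and Alpl had 35.1 and 20.1, all higher in library 1, while H19 and Igf2 were higher in library 2.

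The gene lists were written from general knowledge, but with earlier results of these data known. For them, WT TGF-beta was compared with the mean of the other 3 groups by edgeR's quasi-likelihood test. A call needed a Benjamini-Hochberg adjusted p below 0.05. Over all 15789 tested genes, 5500 (34.8%) were higher and 5919 (37.5%) lower, with a median log2 fold change of -0.07. With library totals as the scale the split was 4420 higher and 7237 lower. With the other 6 libraries fitted as 1 group, 2701 were higher and 3388 lower. The state genes among the list members passed the 2-fold rule on the same libraries, so that their own calls add nothing to the rule. They include Lox, Megf10 and Bmper. They also enter the list counts and medians below, which are therefore not independent of the rule.

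Most TGF-beta ligand and receptor genes were higher. Of 16 ligand, receptor and latency genes tested, 10 were higher and 4 lower, with a median of 1.15, but with the other 6 libraries fitted as 1 group 5 were higher and none lower, with a median of 0.24. Tgfb2, a ligand, had 96.4 and 104 CPM in WT TGF-beta, against 13.4 and 12.1 in K36M TGF-beta, 5.89 and 6.90 in K36M Repsox and 21.8 and 24.5 in WT Repsox. Inhba, the activin A subunit, had 98.8 and 86.2 CPM in WT TGF-beta, against 1.76 and 2.20 in K36M TGF-beta, 0.0670 and 0.332 in K36M Repsox and 21.4 and 17.8 in WT Repsox. WT Repsox was the next highest group for both. Ltbp2, a latent TGF-beta binding protein, had 121 and 125 CPM in WT TGF-beta, against 17.3 and 21 in K36M TGF-beta, 9.11 and 15 in K36M Repsox and 461 and 382 in WT Repsox, so that WT TGF-beta lay between WT Repsox and the K36M groups. Against the mean of the 3 groups Ltbp2 was higher (log2 fold change 1.62 ± 0.10 SE, adjusted p = 1.11e-12), but with those 6 libraries fitted as 1 group its log2 fold change was -0.09. The receptor chain Tgfbr3 was the state-low member of the list.

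Smads and feedback genes shifted less than the targets. Of 14 tested, 9 were higher and 1 lower, with a median of 0.50. Pmepa1, an inhibitor of Smad signalling that the pathway itself induces, had 445 and 449 CPM in WT TGF-beta, against 72.1 and 77 in K36M TGF-beta, 8.10 and 8.64 in K36M Repsox and 21 and 15 in WT Repsox. Smad7, the inhibitory Smad, had 303 and 305 CPM in WT TGF-beta, against 94 and 107 in K36M TGF-beta, 49.8 and 48 in K36M Repsox and 71.2 and 68.5 in WT Repsox. In both genes K36M TGF-beta was next and K36M Repsox last.

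Of 15 textbook target genes of TGF-beta, 12 were higher and 2 lower, with a median of 2.59, and 7 were state-high. Ctgf, a matricellular growth factor also driven by YAP and TEAD, had 1868 and 1874 CPM in WT TGF-beta, against 159.9 and 160.0 in K36M TGF-beta, 22.7 and 30.2 in K36M Repsox and 41.8 and 48 in WT Repsox. Wisp1, of the same family, had 353 and 363 CPM in WT TGF-beta, against 11.4 and 15 in K36M TGF-beta, 1.74 and 2.08 in K36M Repsox and 10.4 and 12 in WT Repsox. Edn1, the precursor of endothelin 1, had 69.3 and 74.5 CPM in WT TGF-beta, against 3.60 and 4.12 in K36M TGF-beta, 0.134 and 0.499 in K36M Repsox and 4.01 and 5.03 in WT Repsox. All 3 are state-high, so the rule itself placed them at least 2-fold above K36M TGF-beta, a group with the same ligand. Itgb6, chosen after its values were seen, codes for an epithelial integrin chain that activates latent TGF-beta and was the state-low member, with 0.784 and 0.321 CPM in WT TGF-beta, against 14 and 12.1 in K36M TGF-beta, 11.2 and 12.5 in K36M Repsox and 3.05 and 1.68 in WT Repsox. It was not state-low on TMM-scaled CPM or on DESeq2 size factors.

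BMP genes went both ways. Of 19 tested, 11 were higher and 6 lower, with a median of 1.53, against 34.8% higher and 37.5% lower of all tested genes. But with the other 6 libraries fitted as 1 group 4 were higher and 3 lower and the median was -0.35. In that fit 2701 of all 15789 tested genes were higher and 3388 lower, so both directions are not particular to this list. Fstl1, a secreted follistatin-like protein, had 1242 and 1331 CPM in WT TGF-beta, against 437 and 438 in K36M TGF-beta, 49.7 and 49.9 in K36M Repsox and 291 and 309 in WT Repsox. Bmp7, a BMP ligand of epithelia, had 0.0784 and 0.257 CPM in WT TGF-beta, against 19.2 and 17.4 in K36M TGF-beta, 15.3 and 14.7 in K36M Repsox and 4.08 and 4.39 in WT Repsox. WT TGF-beta was the highest group for the first gene and the lowest for the second. Bmp1, Bmper and Fstl1 were state-high, and Bmp4, Bmp7 and Id2 state-low.

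Most of the matrix genes tested were higher in WT TGF-beta. Of 20 collagen chains, 15 were higher and 5 lower, with a median of 2.37. The fibrillar chains Col1a1, Col1a2, Col3a1, Col5a1, Col5a2 and Col11a1 were state-high with Col7a1 and Col8a1, and the basement membrane chain Col18a1 was state-low. Col1a2 had 2759 and 3166 CPM in WT TGF-beta, against 176 and 179 in K36M TGF-beta, 26.1 and 29.5 in K36M Repsox and 307 and 248 in WT Repsox. Col5a2 had 1307 and 1327 CPM in WT TGF-beta, against 50.0 and 45.3 in K36M TGF-beta, 3.75 and 5.48 in K36M Repsox and 78.6 and 67.7 in WT Repsox. Col11a1 had 354 and 399.6 CPM in WT TGF-beta, against 20.9 and 23.9 in K36M TGF-beta, 1.81 and 0.997 in K36M Repsox and 4.91 and 4.95 in WT Repsox. In Col1a2 and Col5a2, WT Repsox was next highest and K36M Repsox lowest, and in Col11a1 K36M TGF-beta was next. Of 13 lysyl oxidases and collagen hydroxylases, 9 were higher and 3 lower, with Lox, Loxl2, Leprel1 and Serpinh1 state-high. Loxl2 had 639.9 and 645 CPM in WT TGF-beta, against 257 and 269.7 in K36M TGF-beta, 57 and 62.8 in K36M Repsox and 43.4 and 46.9 in WT Repsox.

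Of 24 matrix glycoproteins and proteoglycans tested, 18 were higher and 3 lower, with a median of 1.87. Thbs1, thrombospondin 1, which can free TGF-beta from its latent complex, had 13594 and 14072 CPM in WT TGF-beta, against 443 and 506 in K36M TGF-beta, 62.7 and 84.8 in K36M Repsox and 1329.9 and 1403 in WT Repsox. Igfbp7 had 239 and 238 CPM in WT TGF-beta, against 25.8 and 29.6 in K36M TGF-beta, 1.47 and 2.08 in K36M Repsox and 34.5 and 30.7 in WT Repsox. Thbs1 was the most read state-high gene. Fbln1 and Aspn were the state-low members. Of 21 proteases and their inhibitors, 14 were higher and 2 lower, with Adamts9 the state-low member. Mmp14, a membrane collagenase, had 601 and 642 CPM in WT TGF-beta, against 151 and 162 in K36M TGF-beta, 67.7 and 68.3 in K36M Repsox and 149 and 143 in WT Repsox. Adam12, a metalloprotease of mesenchyme, had 158 and 167 CPM in WT TGF-beta, against 14.3 and 10.4 in K36M TGF-beta, 0.335 and 0.831 in K36M Repsox and 6.23 and 5.11 in WT Repsox. Fitted with the other 6 libraries as 1 group, 6 collagens, 5 cross-linking genes, 7 glycoproteins and 8 proteases were higher. In the same order 1, 1, 1 and 0 were lower, and the medians were 1.45, 1.29, 1.13 and 1.11. Of all 15789 tested genes, 2701 were higher and 3388 lower in that fit.

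Contractile genes were higher in part. Of 19 tested, 12 were higher and 1 lower, with a median of 0.79, and 5 were state-high. Acta2, smooth muscle actin and the usual marker of myofibroblasts, had 557 and 627 CPM in WT TGF-beta, against 83.4 and 86.7 in K36M TGF-beta, 13 and 12.2 in K36M Repsox and 27.1 and 31.8 in WT Repsox. Actg2, the enteric form, had 284 and 279 CPM in WT TGF-beta, against 26.5 and 30.7 in K36M TGF-beta, 2.68 and 2.66 in K36M Repsox and 16.6 and 19.6 in WT Repsox. Tpm1, a tropomyosin that was not a state gene, had 1111 and 1174 CPM in WT TGF-beta, against 745 and 789 in K36M TGF-beta, 322 and 329 in K36M Repsox and 251 and 246 in WT Repsox and was higher against the mean of the 3 groups (log2 fold change 1.73 ± 0.05 SE, adjusted p = 4.02e-19). For Tpm1 both TGF-beta groups lay above both Repsox groups, and K36M Repsox above WT Repsox.

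Transcription factors of mesenchyme were raised over the mean of the other groups without setting WT TGF-beta apart. Of 15 tested, 14 were higher and none lower, with a median of 2.27, but 3 were state-high, Runx1, Runx2 and Tbx18. Prrx1, a homeobox factor of limb and fibroblast mesenchyme, had 101 and 118 CPM in WT TGF-beta, against 4.96 and 5.40 in K36M TGF-beta, 7.30 and 11.3 in K36M Repsox and 236 and 291 in WT Repsox, and so was highest in WT Repsox. Twist1, chosen after its values were seen, had 15.5 and 18.5 CPM in WT TGF-beta, against 2.24 and 1.28 in K36M TGF-beta, 1.94 and 0.748 in K36M Repsox and 41.5 and 39.7 in WT Repsox, and was also highest in WT Repsox. With the other 6 libraries fitted as 1 group, 3 of the 15 were higher. Of 17 mesenchymal surface genes, 13 were higher and 3 lower (9 higher and none lower with the 6 libraries as 1 group), and 8 were state-high. Vim, the mesenchymal intermediate filament, had 4410.4 and 4569 CPM in WT TGF-beta, against 309 and 347 in K36M TGF-beta, 94.5 and 114 in K36M Repsox and 1955 and 1909.6 in WT Repsox. Ncam1, a neural and mesenchymal adhesion protein, had 488 and 520.4 CPM in WT TGF-beta, against 15.1 and 20.9 in K36M TGF-beta, 5.56 and 4.49 in K36M Repsox and 27.3 and 29.4 in WT Repsox.

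The fibroblast markers did not move as one. Col1a1 had 2003 and 2313 CPM in WT TGF-beta, against 313 and 313 in K36M TGF-beta, 29.6 and 39 in K36M Repsox and 464 and 359 in WT Repsox. Col3a1 had 336 and 385 CPM in WT TGF-beta, against 48.7 and 41.5 in K36M TGF-beta, 8.77 and 10.3 in K36M Repsox and 165 and 132 in WT Repsox. Thy1, the surface antigen lost early in reprogramming, had 23.4 and 27.9 CPM in WT TGF-beta, against 38.8 and 38.4 in K36M TGF-beta, 15 and 14.4 in K36M Repsox and 567 and 581 in WT Repsox. Pdgfra, the receptor used to sort fibroblasts, had 2.59 and 3.21 CPM in WT TGF-beta, against 2.40 and 2.10 in K36M TGF-beta, 9.24 and 11.9 in K36M Repsox and 58.3 and 55.8 in WT Repsox. Both collagens were thus highest in WT TGF-beta, while Thy1 and Pdgfra lay there within the range of the K36M libraries and were highest in WT Repsox. Against the mean of the 3 groups Thy1 was lower (log2 fold change -1.22 ± 0.08 SE, adjusted p = 8.79e-12), as was Pdgfra (log2 fold change -1.72 ± 0.18 SE, adjusted p = 1.95e-08), and neither passed with the 6 libraries as 1 group.

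**Figure D4:**
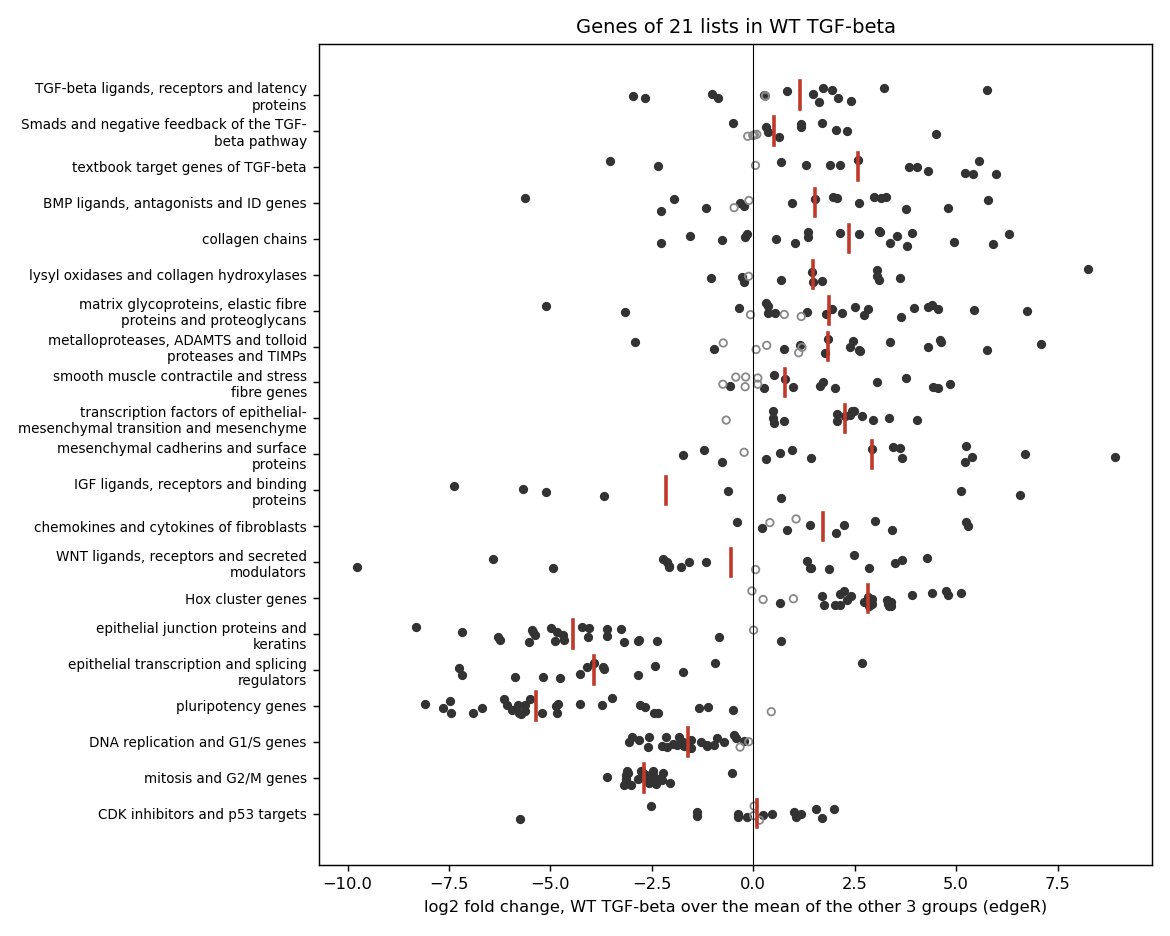
Log2 fold change of WT TGF-beta over the mean of the other 3 groups for each tested gene of 21 lists (filled, adjusted p below 0.05; open, not called), with the list median as a red bar. Medians ran from -5.36 for pluripotency genes to 2.94 for mesenchymal surface genes, and values of genes with few counts depend on the prior count.

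Of 28 Hox genes tested, which carry positional identity of fibroblasts, 25 were higher and none lower, with a median of 2.84 (2.77 with genes at 0 set to their bound), and 12 were state-high. Hoxc8 had 117 and 114 CPM in WT TGF-beta, against 10.6 and 11.9 in K36M TGF-beta, 1.67 and 2.99 in K36M Repsox and 23.1 and 29.9 in WT Repsox. Hoxa3 had 65.4 and 75.7 CPM in WT TGF-beta, against 5.36 and 6.22 in K36M TGF-beta, 0.268 and 0.665 in K36M Repsox and 5.74 and 3.91 in WT Repsox. Hoxa4 had 20.9 and 24.1 CPM in WT TGF-beta, against 3.12 and 2.84 in K36M TGF-beta, 0.268 and 0.0831 in K36M Repsox and 1.80 and 0.878 in WT Repsox. WT TGF-beta was highest and K36M Repsox lowest for all 3. With the 6 libraries as 1 group, 14 were higher.

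Epithelial genes were nearly all lower. Of 26 genes of junctions and keratins, 24 were lower and 1 was higher, at a median of -4.44, and 23 were state-low. Cdh1, E-cadherin, had 37.4 and 20.6 CPM in WT TGF-beta, against 1135 and 1181 in K36M TGF-beta, 1406 and 1377 in K36M Repsox and 684 and 718 in WT Repsox. Krt8 had 13.6 and 11.4 CPM in WT TGF-beta, against 581 and 559.9 in K36M TGF-beta, 972 and 958 in K36M Repsox and 439 and 401 in WT Repsox. Epcam, an epithelial adhesion protein, had 15.2 and 7.18 CPM in WT TGF-beta, against 345 and 344 in K36M TGF-beta, 216 and 207 in K36M Repsox and 117 and 147 in WT Repsox. The K36M groups were the higher ones for these 3 genes, with K36M TGF-beta the highest for Epcam. Jup, plakoglobin, which also serves mesenchymal junctions and was chosen after its values were seen, was the 1 higher member, with 479 and 476 CPM in WT TGF-beta, against 442 and 461 in K36M TGF-beta, 286 and 295 in K36M Repsox and 311 and 293 in WT Repsox. Of 15 epithelial regulators, 14 were lower and 1 higher, with a median of -3.93 (-3.75 with bounds). Esrp1, an epithelial splicing regulator, had 5.72 and 1.60 CPM in WT TGF-beta, against 179 and 196 in K36M TGF-beta, 191 and 202 in K36M Repsox and 81.1 and 83.4 in WT Repsox. Tfap2c, a factor of trophoblast and surface ectoderm, had 2.35 and 1.67 CPM in WT TGF-beta, against 80.0 and 84.2 in K36M TGF-beta, 224 and 212 in K36M Repsox and 132 and 128 in WT Repsox.

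Of 30 pluripotency genes, 29 were lower and none higher, with a median of -5.36 (-5.03 with bounds), and 25 were state-low. Tfcp2l1, a naive pluripotency factor, had 3.37 and 9.17 CPM in WT TGF-beta, against 251 and 251 in K36M TGF-beta, 738 and 776 in K36M Repsox and 537 and 492 in WT Repsox. Zfp42, the marker Rex1, had 0.0784 and 0 CPM in WT TGF-beta, against 7.67 and 7.14 in K36M TGF-beta, 44.7 and 44.4 in K36M Repsox and 9.07 and 6.62 in WT Repsox. Nanog had 12.6 and 2.89 CPM in WT TGF-beta, against 106 and 110.0 in K36M TGF-beta, 102 and 111 in K36M Repsox and 133 and 120.4 in WT Repsox. Zfp42 had 1 count over both WT TGF-beta libraries, against 534 to 668 counts in K36M Repsox libraries. Nanog was the least separated of the 3 in WT TGF-beta library 1, and its other groups were level.

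The reprogramming factors themselves were present in WT TGF-beta, and a gene count cannot tell their transgenes from the endogenous genes. Pou5f1, which encodes Oct4, had 396 and 372 CPM in WT TGF-beta, against 319 and 323 in K36M TGF-beta, 212 and 212 in K36M Repsox and 432 and 396 in WT Repsox. Sox2 had 288 and 277 CPM in WT TGF-beta, against 104 and 117 in K36M TGF-beta, 185 and 179 in K36M Repsox and 296 and 281 in WT Repsox. Klf4 had 628 and 613 CPM in WT TGF-beta, against 199 and 231 in K36M TGF-beta, 179.5 and 179 in K36M Repsox and 493 and 470.4 in WT Repsox, and Myc 525 and 509 CPM in WT TGF-beta, against 191 and 193 in K36M TGF-beta, 132 and 142 in K36M Repsox and 389 and 369.5 in WT Repsox. WT TGF-beta was highest for Klf4 and Myc, and its order against WT Repsox for the other two depended on the scale. On library totals WT TGF-beta overlapped WT Repsox for Sox2 and lay just below it for Pou5f1. On TMM-scaled CPM, an alternative chosen after seeing the data, Pou5f1 had 434 and 416 CPM in WT TGF-beta and 420.0 and 375 in WT Repsox, and Sox2 had 316 and 309.9 in WT TGF-beta and 288 and 266 in WT Repsox. Against the mean of the 3 groups all 4 were higher, by 0.53 ± 0.06 for Pou5f1, 0.85 ± 0.06 for Sox2, 1.43 ± 0.05 for Klf4 and 1.46 ± 0.05 for Myc on the log2 scale. Their adjusted p-values were 1.22e-08, 1.05e-11, 1.52e-16 and 5.67e-17 in that order, and Pou5f1 and Sox2 did not pass with the 6 libraries as 1 group.

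Cell cycle genes were nearly all lower. Of 24 mitosis genes, 24 were lower, with a median of -2.69, and 23 were state-low. Mki67, the proliferation antigen, had 101 and 97.5 CPM in WT TGF-beta, against 920.0 and 1008 in K36M TGF-beta, 758 and 787 in K36M Repsox and 476 and 536 in WT Repsox. Cenpf, a kinetochore protein, had 26.6 and 26.2 CPM in WT TGF-beta, against 525 and 533 in K36M TGF-beta, 408 and 398 in K36M Repsox and 229 and 229.6 in WT Repsox. Ccnb1, cyclin B1, had 15.1 and 13.7 CPM in WT TGF-beta, against 171 and 167 in K36M TGF-beta, 144 and 155 in K36M Repsox and 126 and 139 in WT Repsox. All 3 were highest in K36M TGF-beta. Of 26 replication genes, 24 were lower and none higher, with a median of -1.62, and 18 were state-low. Dnmt1, the maintenance DNA methyltransferase, had 95.7 and 93.9 CPM in WT TGF-beta, against 359.8 and 347 in K36M TGF-beta, 609 and 581 in K36M Repsox and 399 and 349 in WT Repsox. Uhrf1, its partner, had 42.5 and 36 CPM in WT TGF-beta, against 374 and 399.6 in K36M TGF-beta, 386 and 373 in K36M Repsox and 379.9 and 321 in WT Repsox, and Mcm10, a replication initiation factor, had 13 and 10.6 CPM in WT TGF-beta, against 109 and 107 in K36M TGF-beta, 111 and 104 in K36M Repsox and 116 and 94.3 in WT Repsox. The 6 other libraries were nearly level for the last pair.

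Inhibitors of the cell cycle did not move together as a list. Of 18 CDK inhibitor and p53 target genes, 8 were higher and 7 lower, in shares not far from the 34.8% and 37.5% of all tested genes, and the median of 0.09 was -0.11 with library totals as the scale. Cdkn1c, the imprinted inhibitor p57, had 2.19 and 4.10 CPM in WT TGF-beta, against 57.3 and 55.8 in K36M TGF-beta, 489 and 457 in K36M Repsox and 305 and 290.3 in WT Repsox. Cdkn1b, the inhibitor p27, had 8.23 and 9.68 CPM in WT TGF-beta, against 60.1 and 59.2 in K36M TGF-beta, 83.4 and 81.5 in K36M Repsox and 41.6 and 43.9 in WT Repsox. Cdkn1a, the inhibitor p21 and a shared target of Smads and p53, was chosen after its values were seen and had 1074 and 1032 CPM in WT TGF-beta, against 380.1 and 377 in K36M TGF-beta, 149 and 161 in K36M Repsox and 469 and 467 in WT Repsox. Ccng1, a p53 target that was no state gene, had 1113 and 1112 CPM in WT TGF-beta, against 484 and 463 in K36M TGF-beta, 240.3 and 247 in K36M Repsox and 489 and 599.8 in WT Repsox and was higher against the mean of the 3 groups (log2 fold change 1.68 ± 0.05 SE, adjusted p = 9.41e-18).

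Growth factor genes also went both ways within families. Of all tested genes 34.8% were higher and 37.5% lower, so that both directions within a list are not particular to it. Of 8 IGF genes, 3 were higher and 5 lower, with Igfbp3 and Igfbp5 state-high and Igf2, Igfbp2, Igfbp4 and Igfbp6 state-low. Igfbp5, chosen after its values were seen, had 424 and 438 CPM in WT TGF-beta, against 2.32 and 1.83 in K36M TGF-beta, 1.14 and 1.66 in K36M Repsox and 50.3 and 45.5 in WT Repsox. Igfbp6 had 0.313 and 0.257 CPM in WT TGF-beta, against 10.8 and 10.2 in K36M TGF-beta, 31.9 and 35.5 in K36M Repsox and 13.8 and 13.6 in WT Repsox. Binding proteins of 1 family thus stood at opposite ends. Of 20 WNT genes, 9 were higher and 10 lower, with a median of -0.55 and 4 state genes in each direction. With the other 6 libraries fitted as 1 group, 3 were higher and 7 lower. Wnt7b, an epithelial ligand, had 0.470 and 0.641 CPM in WT TGF-beta, against 44.1 and 37.5 in K36M TGF-beta, 178 and 189 in K36M Repsox and 24.2 and 22.8 in WT Repsox. Wnt5a, a ligand of mesenchyme chosen after its values were seen, had 116 and 111 CPM in WT TGF-beta, against 8.23 and 7.23 in K36M TGF-beta, 2.54 and 3.07 in K36M Repsox and 45.5 and 50.7 in WT Repsox. Of 12 cytokines tested, 9 were higher and 1 lower, but 1 was higher with the 6 libraries as 1 group.

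A further 3 of the 10 most read state-low genes were chosen after their values were seen. Peg10, a paternally expressed gene derived from a retroelement, had 75.8 and 105 CPM in WT TGF-beta, against 1406 and 1407 in K36M TGF-beta, 8286 and 8487 in K36M Repsox and 4093 and 4647 in WT Repsox. Slc2a1 and Slc2a3 encode glucose transporters. Slc2a1 had 56.8 and 58.5 CPM in WT TGF-beta, against 1551 and 1522 in K36M TGF-beta, 2107 and 2056 in K36M Repsox and 685 and 677 in WT Repsox. Slc2a3 had 175 and 155 CPM in WT TGF-beta, against 3497 and 3555 in K36M TGF-beta, 2602 and 2679 in K36M Repsox and 949 and 931 in WT Repsox. Every K36M library was above every WT library for the transporters, and K36M Repsox was highest for Peg10.

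Markers of cell types other than fibroblasts went both ways in WT TGF-beta. Of all tested genes 34.8% were higher and 37.5% lower, and the counts in these short lists were not tested against those shares. Of 10 endothelial markers tested, 8 were lower and 2 higher. Of the 8 lower ones 7 were state-low, while 9.44% of all genes with at least 1 count were. The defining marker Pecam1 had 0.392 and 0.257 CPM in WT TGF-beta, and Tie1 and Sox17 were at 0 there, while Tek, a receptor of angiopoietins, had 108 and 105 CPM in WT TGF-beta, against 69.9 and 71.5 in K36M TGF-beta, 8.24 and 10.7 in K36M Repsox and 26.7 and 29.3 in WT Repsox. In WT TGF-beta Tek made up most of the list's summed level, which was 114 and 111 CPM in WT TGF-beta, against 164 and 162 in K36M TGF-beta, 139 and 133 in K36M Repsox and 67.1 and 73.3 in WT Repsox. Of 6 macrophage and blood markers, 3 were lower and 2 higher. Csf1r was at 0.862 and 0.321 CPM in WT TGF-beta and Ptprc, the leukocyte antigen CD45, at 0.157 and 0, but Itgam, an integrin chain of myeloid cells, and Cd14 were state-high. Itgam had 12.7 and 10.3 CPM in WT TGF-beta, against 0.400 and 1.19 in K36M TGF-beta, 0.870 and 0.332 in K36M Repsox and 0.761 and 1.92 in WT Repsox. The list summed to 30.9 and 29.2 CPM in WT TGF-beta, against 36.5 and 44.3 in K36M TGF-beta, 92.7 and 90.9 in K36M Repsox and 32.3 and 33.8 in WT Repsox.

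Of 8 cartilage and bone markers, 4 were lower and 2 higher. Col2a1, the cartilage collagen, was state-high, with 181 and 278 CPM in WT TGF-beta, against 25.8 and 24.2 in K36M TGF-beta, 9.31 and 12 in K36M Repsox and 9.90 and 8.70 in WT Repsox. It made up most of the list's sum of 223 and 308 CPM in WT TGF-beta, against 554 and 535 in K36M TGF-beta, 518 and 527 in K36M Repsox and 265 and 212 in WT Repsox. Of 7 skeletal muscle markers, 5 were lower and 1 higher, and Myod1, Myf5 and Actc1 were at 0 counts in both WT TGF-beta libraries. The sum of the muscle list was 30.2 and 30.3 CPM in WT TGF-beta and 54.9 to 115 in the other libraries. Of 3 adipocyte markers tested, 2 were lower and 1 higher, with a sum of 19.9 and 18.8 CPM in WT TGF-beta and 14.8 to 66.6 in the other libraries. Of 4 tendon markers, 2 were higher and 1 lower, with Scx and Mkx state-high and the list's sum, 53.3 and 48.3 CPM in WT TGF-beta, below the 97.5 and 91.9 of WT Repsox. The lower member, Egr1, was not called with DESeq2 or with the other 6 libraries fitted as 1 group.

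Of 10 neural markers, 6 were higher and 4 lower. Nes, nestin, which fibroblasts in culture also express, had 944 and 1054 CPM in WT TGF-beta, against 243 and 234 in K36M TGF-beta, 46.9 and 50.9 in K36M Repsox and 143 and 124 in WT Repsox. Stmn2, a stathmin, and Dcx, doublecortin, were state-high too, and Dcx had 24.5 and 27.8 CPM in WT TGF-beta, against 0.320 and 0.0915 in K36M TGF-beta, 0.134 and 0 in K36M Repsox and 0.346 and 1.60 in WT Repsox. Olig2, with 0 and 0.128 CPM in WT TGF-beta, and Elavl3, with 0.157 and 0.385, were state-low, and Ncan and Sox10 were lower as well. The summed level of the neural list was 1452 and 1529 CPM in WT TGF-beta, against 166 to 379 in the other libraries, and Nes was the largest part of it in WT TGF-beta. The part that other cells had in the state was not tested.

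The comparison of the K36M media has no WT TGF-beta library on either side, but its filter, scaling and spread came from all 8 libraries. A state-high gene could pass the filter through its WT TGF-beta counts alone. Genes near 0 in both K36M groups, such as Klhl1, can hardly be called. The state-high shares are therefore not on a like footing with those of all tested genes. K36M TGF-beta and K36M Repsox differed at 3895 higher (24.7%) and 3731 lower (23.6%) of the 15789 tested genes. Of the 853 state-high genes that passed the filter, 497 (58.3%) were higher in K36M TGF-beta and 39 (4.57%) lower, with a median log2 fold change of 1.06 against 0.01 over all tested genes. Of the 2069 state-low genes that passed, 355 (17.2%) were higher and 800 (38.7%) lower, with a median of -0.22. The rule took the highest or the lowest of these libraries into account but not the difference between them.

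Lox, at 45.6 and 61.2 CPM in K36M TGF-beta, was higher there than in K36M Repsox, at 0.803 and 5.82 (log2 fold change 4.09 ± 0.27 SE, adjusted p = 2.83e-11). Tnfrsf11b was higher too, with 3.28 and 3.29 CPM against 0 and 0.416 (log2 fold change 4.06 ± 0.48 SE, adjusted p = 2.93e-07). C1qtnf3 was also called (log2 fold change 2.91 ± 0.44 SE, adjusted p = 8.90e-06), as was Adam12 (log2 fold change 4.45 ± 0.29 SE, adjusted p = 2.10e-11). Ctgf had 159.9 and 160.0 CPM in K36M TGF-beta, against 22.7 and 30.2 in K36M Repsox (log2 fold change 2.59 ± 0.09 SE, adjusted p = 1.05e-15). Bmper did not pass (log2 fold change 0.19 ± 0.39 SE, adjusted p = 0.736), nor did Clstn2 (log2 fold change -0.48 ± 0.50 SE, adjusted p = 0.45). Lox in K36M TGF-beta was still 44.3-fold below its mean in WT TGF-beta. Of the state-low genes, Krt7 (log2 fold change -1.51 ± 0.10 SE, adjusted p = 1.43e-11), H19 (log2 fold change -2.19 ± 0.19 SE, adjusted p = 2.87e-09) and Igf2 (log2 fold change -2.65 ± 0.17 SE, adjusted p = 1.04e-11) were lower in K36M TGF-beta. Tmem51 did not pass (log2 fold change -0.06 ± 0.13 SE, adjusted p = 0.735). Mki67 (log2 fold change 0.31 ± 0.06 SE, adjusted p = 3.94e-04) and Cenpf (log2 fold change 0.38 ± 0.07 SE, adjusted p = 5.13e-05) were higher in K36M TGF-beta, the opposite of their place in WT TGF-beta.

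**Figure D5:**
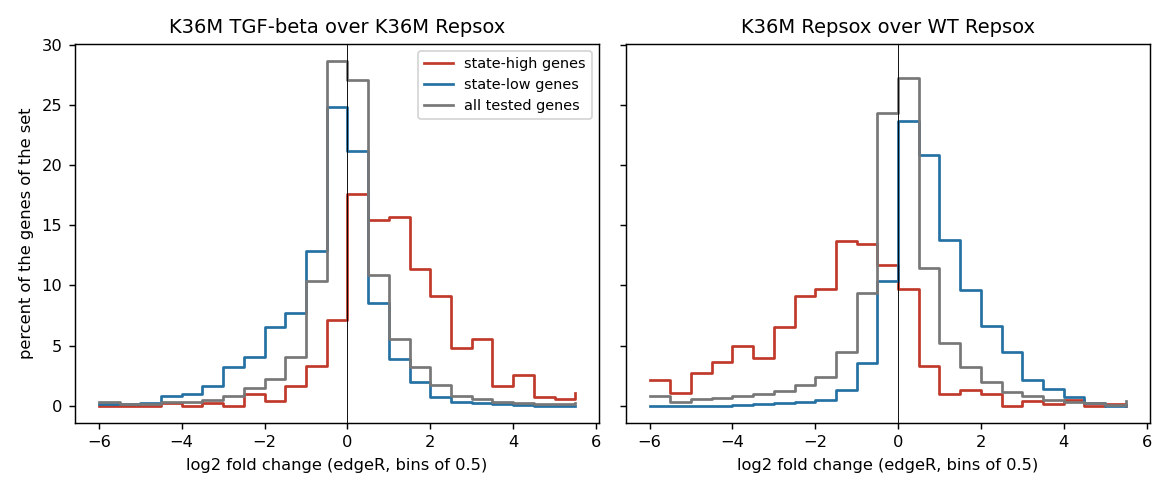
Distribution of log2 fold changes, in percent of each set per bin of 0.5, for the 853 state-high and 2069 state-low genes that passed the filter and all 15789 tested genes, for K36M TGF-beta over K36M Repsox (left) and K36M Repsox over WT Repsox (right). The state-high genes have medians of 1.06 and -1.28, the state-low genes of -0.22 and 0.72, and all tested genes of 0.01 and 0.04.

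The Repsox libraries give the comparison of genotypes under the inhibitor, without added TGF-beta ligand. This comparison shares the K36M Repsox libraries with the comparison of media. K36M Repsox differed from WT Repsox at 4551 higher (28.8%) and 4254 lower (26.9%) of the tested genes. Of the 853 state-high genes, 43 (5.04%) were higher in K36M Repsox and 545 (63.9%) lower, with a median of -1.28 against 0.04 over all tested genes. These genes passed the same filter on all libraries, so its limit holds here too. Of the 2069 state-low genes, 1290 (62.3%) were higher and 129 (6.23%) lower, with a median of 0.72.

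Inhba had 0.0670 and 0.332 CPM in K36M Repsox and 21.4 and 17.8 in WT Repsox (log2 fold change -6.63 ± 0.32 SE, adjusted p = 6.05e-14). Thbs1 had 62.7 and 84.8 CPM in K36M Repsox and 1329.9 and 1403 in WT Repsox (log2 fold change -4.19 ± 0.09 SE, adjusted p = 9.72e-20), and Vim was lower as well (log2 fold change -4.19 ± 0.08 SE, adjusted p = 1.43e-20). Lox had 0.803 and 5.82 CPM in K36M Repsox and 4.71 and 3.91 in WT Repsox, and did not pass (log2 fold change -0.47 ± 0.40 SE, adjusted p = 0.335). It did pass without K36M Repsox library 2, at a log2 fold change of -2.38. Loxl2 was higher in K36M Repsox (log2 fold change 0.43 ± 0.08 SE, adjusted p = 8.11e-05), so that not every matrix gene of the state followed the median. Of the state-low genes, Tns4 (log2 fold change 2.96 ± 0.10 SE, adjusted p = 1.29e-16), Wnt7b (log2 fold change 2.98 ± 0.10 SE, adjusted p = 2.06e-16) and Krt7 (log2 fold change 2.06 ± 0.10 SE, adjusted p = 6.05e-14) were higher in K36M Repsox. Uhrf1 did not pass (log2 fold change 0.14 ± 0.08 SE, adjusted p = 0.173), nor did Mcm10 (log2 fold change 0.06 ± 0.10 SE, adjusted p = 0.667).

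For each state gene that passed the filter, the nearest of the 3 other groups by mean CPM was found. The nearest group was the highest of the 3 for state-high genes and the lowest for state-low genes. WT Repsox was nearest for 468 state-high genes (54.9%), K36M TGF-beta for 334 (39.2%) and K36M Repsox for 51 (5.98%). Over all tested genes the highest of the 3 was WT Repsox for 34.7%, K36M TGF-beta for 32.5% and K36M Repsox for 32.8%. Among state-low genes WT Repsox was nearest for 1241 (60.0%), K36M TGF-beta for 606 (29.3%) and K36M Repsox for 222 (10.7%). The lowest of the 3 over all tested genes was WT Repsox for 34.7%, K36M TGF-beta for 32.0% and K36M Repsox for 33.3%.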

How the data were processed

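RNA-seq was measured in 8 libraries of 4 groups of 2. The deposited values were whole-number counts of reads per gene in 1 table of 26930 genes, not normalized by the authors, as the values show. The genome build was mm9 and the named tools were STAR 2.5.0, HTSeq 0.11.2 and edgeR, per the submitters' processing notes. The annotation, the strand setting and what edgeR was used for are not given in the sources used here. Overlapping, antisense or near-identical genes can therefore share reads that cannot be told apart. Totals were 10928302 to 15594217 counts per library, and intervals cover counting error only.

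CPM was the count over the column total times 1000000. After filterByExpr had kept 15789 genes, the 8 libraries were scaled by TMM and entered 1 model with a mean for each group, tested by the quasi-likelihood method of edgeR 4.0.16 under R 4.3.3 (common biological coefficient of variation 0.0702, residual degrees of freedom 4, prior degrees of freedom 17.5). P-values were adjusted over all 15789 genes by Benjamini-Hochberg, with calls below 0.05. DESeq2 1.42.0 was an alternative. The script was checked on simulated counts. Coordinates are from GENCODE vM1 on mm9, in which 26763 of the 26930 identifiers were found. Of 491 genes in 28 lists, Map2 and Sox1 had no entry in the table.

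The genes named are Lox, Megf10 and Bmper, the 15 largest ratios in each direction at 10 CPM or more (without unnamed loci, pseudogenes, mitochondrial, small RNA and histone cluster genes), the most abundant member and the 2 state members with the largest ratio of each list, the 3 genes on each side of the limit, and a fixed set of reprogramming, histone, fibroblast and epithelial genes. Not every gene that the rule names is described, and some are not reported here. The members and lists were chosen with earlier results of these data known.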

Additional observations from a re-analysis of the deposited data

Results flagged for a closer look

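For 32 of the named genes the media differed in opposite directions in the WT and K36M cells, with no overlap between the libraries of the media in either. The difference between genotypes was not tested, and the WT TGF-beta libraries also chose the state genes. The same count over all tested genes was not made, so 32 cannot be read as many or few. The values are log2 fold changes of K36M TGF-beta over K36M Repsox from edgeR, and the libraries were compared by CPM on library totals. On TMM-scaled CPM, an alternative chosen after seeing the data, 31 of the 32 still differed in opposite directions, and for Pou5f1 the WT libraries of the media overlapped.

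In 7 genes K36M TGF-beta was below K36M Repsox and WT TGF-beta above WT Repsox. Of them Fam176a, Hcn4, Pde8a, Syk and Tns1 are state-high. The 7 genes were Fam176a (-2.40), Hcn4 (-1.69), Pde8a (-1.39), Syk (-1.26), Tns1 (-1.24), Fam46a (-0.96) and Zbtb41 (-0.30).

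In 25 genes K36M TGF-beta was above K36M Repsox and WT TGF-beta below WT Repsox. The matrix, muscle and fibroblast genes among them were Actc1 (4.49), Jph1 (1.81), Col18a1 (1.81), Thy1 (1.38), Des (1.19), Ltbp2 (0.68) and Comp (0.63). Signalling and pluripotency genes were Nodal (1.73), Wnt6 (0.74), Pou5f1 (0.58) and Bmp7 (0.27), and epithelial genes were Tgm1 (1.80) and Epcam (0.69). Genes of cell division were Foxm1 (0.78), Cenpf (0.38), Mki67 (0.31) and Ccnb1 (0.16). The others were Egr1 (0.76), H3f3a (0.62), Siva1 (0.45), Slc2a3 (0.40), H3f3b (0.26), Lyar (0.22), Nup205 (0.18) and Zfp652 (0.18). Of the 25, Comp, Bmp7, Ccnb1, Lyar and Zfp652 did not pass the test between the K36M media.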

How the results depend on the processing

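The counts of state genes depended on the fold asked for. At 3-fold 584 state-high genes were left, and at 4-fold 410 state-high and 1213 state-low genes. Scaled by DESeq2 size factors the rule found 1339 and 1889, and without each library in turn 1062 to 1524 state-high and 2287 to 2780 state-low genes. A rule over fewer libraries is easier to meet, so these counts could only grow. Against the other 6 libraries fitted as 1 group, which puts the differences between those groups into the error, 2701 genes were higher and 3388 lower in WT TGF-beta. Under that setting the log2 fold change of Ltbp2 was -0.0933, a reversed sign with no call. Library totals without TMM factors were an alternative chosen after seeing the data.

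The replicate numbers did not pair the libraries: deviations of same-numbered libraries from their group means correlated at -0.0207 to 0.0314. With the replicate number as a block the calls were 5519 higher and 5915 lower for WT TGF-beta, 3905 and 3764 for K36M TGF-beta over K36M Repsox, and 4594 and 4286 for K36M Repsox over WT Repsox. Other alternatives left the counts of called genes within 1.5 times. With 2 libraries a group, small differences at low counts were not resolved.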

Other observations

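Some state genes moved the other way between the K36M media, and these were chosen after their values were seen. Unnamed loci and pseudogenes were left out here and below. Of 595 state-high genes with a mean of at least 10 CPM in WT TGF-beta, 36 (6.05%) were lower in K36M TGF-beta than in K36M Repsox. Of all tested genes, taken without these limits, 23.6% were lower. The 595 also include genes near 0 in both K36M groups, which can hardly be called lower, so the 2 shares are not on a like footing. Tns1, a tensin of fibrillar adhesions, had 850.3 and 835 CPM in WT TGF-beta, against 62.1 and 75.8 in K36M TGF-beta, 166 and 156 in K36M Repsox and 289.7 and 266 in WT Repsox (log2 fold change -1.24 ± 0.08 SE, adjusted p = 4.21e-11, K36M TGF-beta over K36M Repsox). Fam176a had 47 and 46 CPM in WT TGF-beta, against 1.60 and 2.38 in K36M TGF-beta, 9.04 and 11.8 in K36M Repsox and 4.50 and 5.03 in WT Repsox (log2 fold change -2.40 ± 0.23 SE, adjusted p = 1.00e-08). Pde8a, a cyclic AMP phosphodiesterase, had 77.3 and 68.8 CPM in WT TGF-beta, against 9.19 and 8.51 in K36M TGF-beta, 23.4 and 22.6 in K36M Repsox and 15 and 14.8 in WT Repsox (log2 fold change -1.39 ± 0.14 SE, adjusted p = 1.52e-08). In all 3, K36M TGF-beta was the lowest of the 4 groups.

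Of 862 state-low genes with at least 10 CPM in each of the 6 other libraries, 151 (17.5%) were higher in K36M TGF-beta than in K36M Repsox. The share was 24.7% of all tested genes, taken without the 10 CPM minimum. Nodal, a ligand of the activin branch of the TGF-beta family, had 0.470 and 0.449 CPM in WT TGF-beta, against 60.5 and 64.7 in K36M TGF-beta, 21.2 and 15.9 in K36M Repsox and 19.3 and 19.6 in WT Repsox (log2 fold change 1.73 ± 0.13 SE, adjusted p = 2.57e-10). Col18a1 had 85.6 and 86.4 CPM in WT TGF-beta, against 1088 and 1083 in K36M TGF-beta, 313 and 301 in K36M Repsox and 341 and 298 in WT Repsox (log2 fold change 1.81 ± 0.07 SE, adjusted p = 7.45e-15). Tgm1, a transglutaminase of stratified epithelia, had 2.04 and 2.12 CPM in WT TGF-beta, against 194 and 197 in K36M TGF-beta, 57.8 and 52.9 in K36M Repsox and 52.3 and 52.2 in WT Repsox (log2 fold change 1.80 ± 0.08 SE, adjusted p = 6.28e-14). Jph1, a junctophilin of muscle, had 3.84 and 3.85 CPM in WT TGF-beta, against 49.8 and 54.4 in K36M TGF-beta, 15.5 and 13.8 in K36M Repsox and 13.8 and 15 in WT Repsox (log2 fold change 1.81 ± 0.13 SE, adjusted p = 7.75e-11). For these 4 genes the groups under TGF-beta were the lowest (WT) and the highest (K36M) of the 4, and the Repsox groups lay between them.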
